A study of Macaca mulatta with 102 samples.

Results

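Cells recovered from milk were compared between day 30 and day 90 post-partum in 6 lactating rhesus macaques (Macaca mulatta), called M1 to M6. Each animal was milked on both days, so the comparison rests on 6 pairs of samples, and these 12 milk cell samples were taken by their labels, tissue type Cells at either time point, from the 34 samples of the series. The other samples were mammary biopsies, milk fat and a further milk fraction. RNA was selected for poly(A) tails and sequenced as single reads, and the level of each transcript was given as FPKM, a count of fragments set relative to the length of the transcript and to the size of the library.

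The labels give no treatment. Before both milkings the mothers were sedated, were kept from nursing while milk accumulated, and received oxytocin. Between the days, 3 of the macaques had a further session with sedation, oxytocin and repeated milking, and the study does not say which. M3, M4 and M6 had their mammary biopsy right after the day 30 milking, and M1, M2 and M5 right after the day 90 milking, so 3 animals had been biopsied before their second milk. In the study 1 female developed mastitis that resolved with antibiotics, and which female it was is not given in the sources used here. Both days of an animal were sequenced in the same pool: M1 and M2 shared pool 2, M3 and M4 shared pool 3, and M5 and M6 shared pool 4.

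The pellet of spun milk is a mixture. It holds shed milk-secreting epithelial cells and leukocytes, chiefly macrophages, neutrophils and lymphocytes. Secretory cells devote much of their messenger RNA to a few milk proteins, the caseins, alpha-lactalbumin, lysozyme and lactoferrin among them, and make lactose in the Golgi apparatus with an enzyme formed by a galactosyltransferase and alpha-lactalbumin. As in any bulk sample, fewer cells of a type and less RNA per cell cannot be told apart. The markers of leukocytes and of other mammary cells could not be read here, because nothing at hand paired the transcript identifiers with gene names beyond a small set of transcripts, so the mixture of cells on each day was not tested.

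The libraries were of similar depth. Depth relative to the median sample, estimated from the spacing of low FPKM, was between 0.855 and 1.11 at day 30 and between 0.85 and 1.19 at day 90. Each of the 36 technical runs correlated best with a run from the same sample. An FPKM of at least 1 was reached by a mean of 13110 ± 1343 transcripts at day 30 and 13100 ± 1193 at day 90 (SD, n = 6), which was higher at day 90 in 3 animals and lower in 3 (two-sided p = 1 by an exact permutation of signs over animals). Values below are given as FPKM, and differences are log2 differences of scaled FPKM with 1 added, day 90 minus day 30, so that 1 means 2-fold. For single transcripts, counts of animals higher or lower at day 90 are of these scaled differences. Their sign can differ from that of FPKM before scaling. Adding 1 understates the change of transcripts of low level. The factors used for scaling ran from 0.767 (M3, day 90) to 1.51 (M2, day 30) among the milk cell samples. RNA integrity was not examined here.

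Most transcripts that differed between the days differed by little. Of the 13815 transcripts whose mean FPKM reached 1, 3460 (25.0%) differed at an adjusted p under 0.05 in a limma fit with the animals as pairs. These were 1608 transcripts (11.6%) that rose and 1852 (13.4%) that fell. The split moved with the scaling and the filter, to 1250 higher and 2049 lower with FPKM as deposited, 1515 and 2230 with scaling to the 75th percentile, and 434 and 871 with transcripts of low level left in. In the first fit, only 191 of the rises and 51 of the falls were larger than 2-fold. A further limit of more than 3-fold was passed by 16 rises and 9 falls, together 25 transcripts or 0.181% of those tested. The number rested on the pairing: with animals not paired, 711 transcripts differed at an adjusted p under 0.05 in limma, 491 higher and 220 lower, of which 13 passed 3-fold. It also rested on each animal, with 729 transcripts past the adjusted p without M6, 1558 without M5, 1573 without M1, 1989 without M2, 2491 without M4 and 4283 without M3.

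The animals did not move to the same extent. The transcripts that changed more than 3-fold between an animal's days numbered 178 in M3, 211 in M1, 227 in M4, 335 in M6, 473 in M2 and 609 in M5. In M6 they were mainly higher at day 90 (264 against 71 lower), and in M2 mainly lower (361 against 112 higher). M5, with the most, had the highest relative depth at day 30, 1.11, and the lowest at day 90, 0.85. M3, with the fewest, went from 1.01 to 1.19. Whether depth bears on these numbers was not tested. Across transcripts, the changes of M1, M2, M5 and M6 correlated with each other with coefficients of 0.383 to 0.516. Those of M3 correlated with the other animals' changes by a median coefficient of 0.159 and those of M4 by 0.232. M3 and M4 made up pool 3, so pool and animal cannot be told apart here. Both were biopsied at day 30, as was M6 of pool 4. The changes of M6 correlated by 0.383 to 0.509 with those of M1, M2 and M5, all biopsied at day 90. They correlated by 0.404 with those of M4 and by 0.159 with those of M3. The changes of M3 and M4 correlated with each other by 0.175. Without these 2 animals 97 transcripts passed 3-fold and the adjusted p, an alternative chosen after seeing the data. Of the 13815 transcripts tested, 1386 were higher at day 90 after scaling in every animal and 2365 were lower in every animal.

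**Figure D1:**
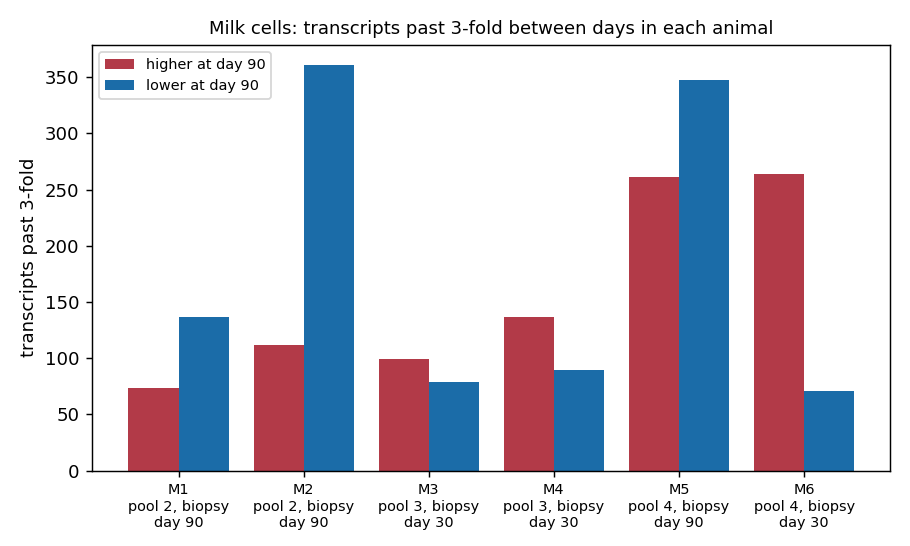
Number of transcripts (vertical axis) that were more than 3-fold higher (red) or lower (blue) at day 90 than at day 30 in the milk cells of each animal, among the 13815 transcripts tested, with the animal's pool and the day of its biopsy below its name. M5 had the most, 609, and M3 the fewest, 178.

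The direction of the change went with the level of the transcript. Among the 166 transcripts whose mean log2 level was 8 or more, 109 fell and 3 rose at an adjusted p under 0.05 in limma, and the median day difference was -0.49. Every animal had a median below 0 in this class, from -0.69 in M5 to -0.19 in M3. Between levels of 6 and 8, 239 of 441 transcripts fell and 20 rose, with a median of -0.39. Below a level of 2, the balance was the other way, with 672 of 5812 transcripts higher and 219 lower, although the median was only 0.02. The median over all transcripts was -0.04. The classes here and below were read with the scaling of the main fit alone. The split of rises and falls over all transcripts moved with the scaling, so class medians near 0 have no firm sign.

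It also went with the length of the locus, the stretch of genome from a transcript's start to its end, introns included, from 100 bases upward. The 107 transcripts at shorter loci held no rise or fall that passed, and each animal's median there was 0. Of the 1083 transcripts at loci of 100 to 1000 bases, 391 fell and 39 rose, with a median difference of -0.34 and animal medians between -0.50 and -0.13. Of the 173 at loci of 300000 bases or more, 7 fell and 33 rose, with a median of 0.13. Short loci also held many abundant transcripts, but among transcripts below a level of 6 the classes kept their order, with medians of -0.27 at loci of 100 to 1000 bases and 0.13 at loci of 300000 bases or more. Among loci of at least 10000 bases the medians were 0.04 below a level of 2 and -0.16 at levels of 8 or more, a smaller spread than over all loci. The latter rests on 19 transcripts, with M2 at 0.08 and the other animals from -0.45 to just below 0. Loci of 100 to 1000 bases leave no room for introns of usual size and may be copies of genes that lie elsewhere, between which reads are divided without certainty. The cause of these trends was not tested.

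**Figure D2:**
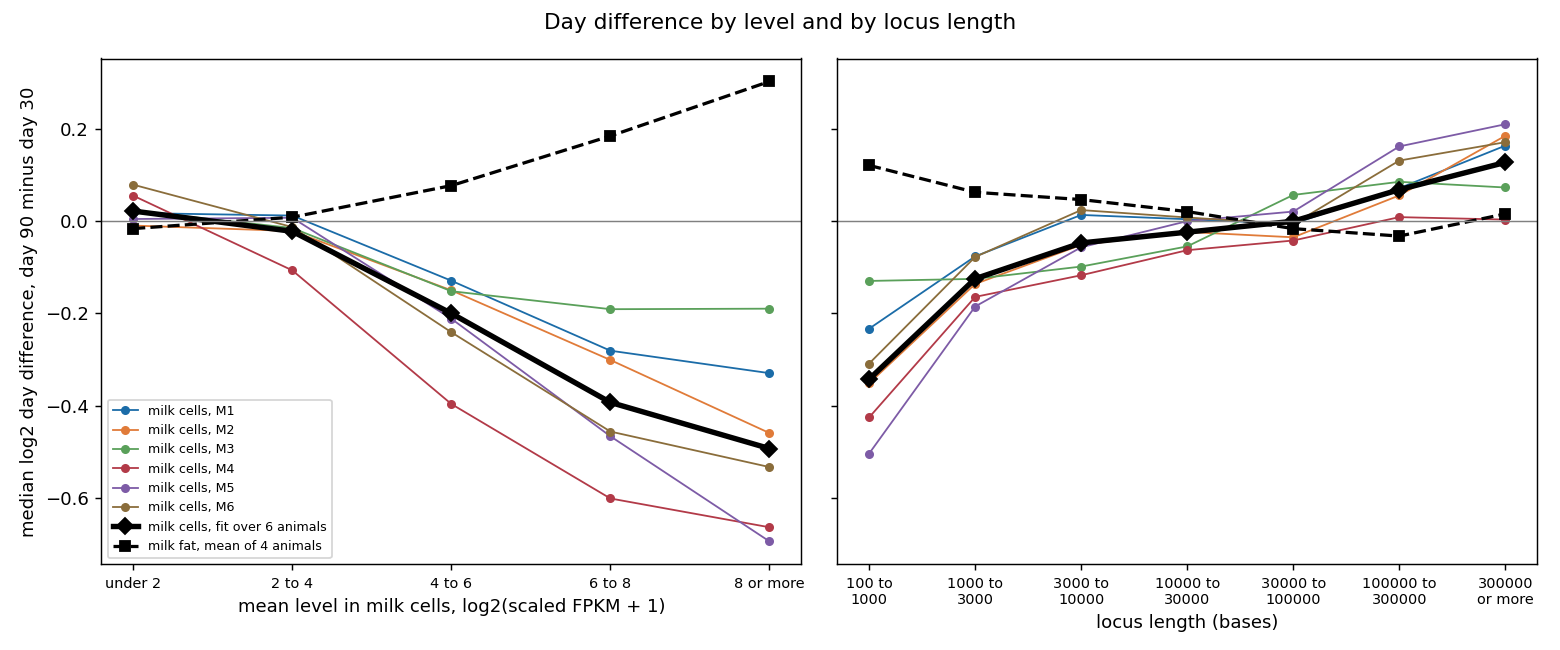
Median log2 day difference, day 90 minus day 30 (vertical axis), of transcripts grouped by their mean level in milk cells (left, log2 of scaled FPKM + 1) and by locus length in bases (right), for each animal (coloured lines), for the fit over 6 animals (thick black line) and for milk fat in 4 animals (dashed line). In milk cells all 6 animals lie below 0 at levels of 8 or more, where the milk fat median is 0.30, and at loci of 100 to 1000 bases, where it is 0.12.

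A set of 29 named transcripts of 25 genes was read one by one. It held 22 of the most abundant coding transcripts of milk and mammary gland and 7 transcripts of the lactose synthesis pathway. At an adjusted p under 0.05, 2 of the 29 rose, LTF and B4GALT1, and 8 fell, GLYCAM1, FABP3, TPT1, FTL, FTH1, SERF2, ATP5J2 and NME2, where 11.6% of all transcripts tested rose and 13.4% fell, and 65.7% of those at levels of 8 or more fell. None passed 3-fold. The levels of the days did not overlap in 3 of the 29, FABP3, TPT1 and SERF2, where 2.21% of all transcripts tested did not overlap. These 10 calls are not firm: none of them held without M6 (limma adjusted p of 0.0507 to 0.116) with animals not paired (0.0605 to 0.371), or with transcripts of low level left in (0.0505 to 0.701). Without M1 4 of the 10 held, without M5 5, without M2 6, without M4 8 and without M3 9.

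**Figure D3:**
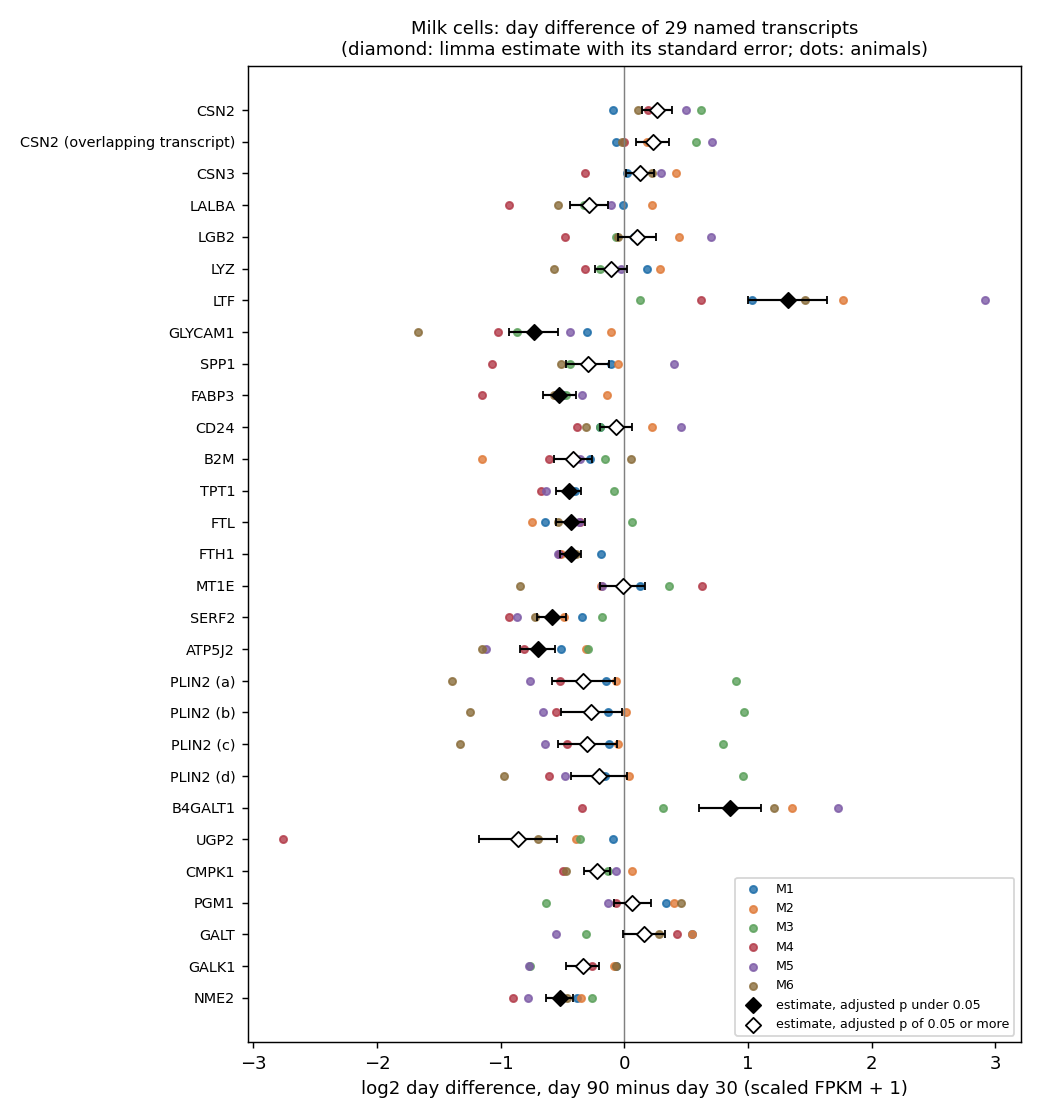
Log2 day difference, day 90 minus day 30 (horizontal axis), of the 29 named transcripts in milk cells, with 1 dot for each animal and a diamond for the limma estimate with its standard error, filled where the adjusted p was under 0.05. The filled diamonds of LTF and B4GALT1 lie above 0 and those of 8 transcripts below 0.

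Caseins and the other major milk proteins were at the top of the range on both days and did not pass the test. CSN2 (chr5:59676470-59680187 in rheMac2), beta-casein, had FPKM of 272100 to 416200 at day 30 (median 356200) and of 324300 to 494100 at day 90 (median 411100). The days overlapped widely, although 5 of 6 animals were higher at day 90. The log2 difference was 0.26 (SE 0.12, limma adjusted p = 0.142). A transcript that overlaps it, also of CSN2, differed by 0.23 (SE 0.13, limma adjusted p = 0.235) and was higher after scaling in only 3 of 6 animals. CSN3, kappa-casein, differed by 0.13 (SE 0.12, adjusted p = 0.442), also with 5 of 6 animals higher after scaling. LALBA, alpha-lactalbumin, went from a median of 102800 to 86340, with a difference of -0.28 (SE 0.16, adjusted p = 0.206). After scaling it was lower in 5 of 6 animals, with M1 at only -0.01. LGB2, a beta-lactoglobulin, differed by 0.10 (SE 0.16, adjusted p = 0.652), and LYZ, lysozyme, which cleaves bacterial cell walls and is made by macrophages as well as by secretory cells, by -0.11 (SE 0.13, adjusted p = 0.563).

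Summed, the milk protein transcripts took a larger share at day 90, which did not pass after adjustment. They did not rise together. Mean FPKM rose most for CSN2, from 353200 to 406000, and for its overlapping transcript, from 57000 to 63890. It also rose for CSN3, LGB2 and LTF. It fell for LALBA, from 117400 to 90900, for LYZ, from 41780 to 36440, and for GLYCAM1 and SPP1. The 9 transcripts of CSN2, CSN3, LALBA, LGB2, LYZ, LTF, GLYCAM1 and SPP1 held 51.4% to 70.6% of the summed FPKM at day 30 (median 69.5%) and 61.9% to 76.3% at day 90 (median 72.7%). The days overlapped between animals, but the share was higher at day 90 in 6 of 6 animals, by a mean of 5.93 percentage points (SD 3.60). An exact permutation of signs over animals gave a two-sided p of 0.03125, the smallest that 6 pairs allow, and 0.0781 after Benjamini-Hochberg adjustment over the 5 values per sample that were tested this way. M2 had the lowest share on both days, 51.4% and 61.9%.

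LTF had the largest rise among the named transcripts. It encodes lactoferrin, an iron-binding milk protein that hinders bacterial growth and is also stored in the granules of neutrophils. At its locus (chr2:90062066-90090651) FPKM ran from 1211 to 3872 at day 30 (median 2385) and from 2510 to 13290 at day 90 (median 5646), with an overlap through the day 90 sample of M3 alone, as the other 5 lay above every day 30 sample. The log2 difference was 1.32 (SE 0.32, limma adjusted p = 0.0226), or 2.50-fold, higher in 6 of 6 animals. It was 1.03 in M1 and 1.77 in M2 (pool 2), 0.13 in M3 and 0.62 in M4 (pool 3), and 2.92 in M5 and 1.46 in M6 (pool 4). M5 moved most, and M3 hardly moved: its FPKM before scaling were 2593 at day 30 and 2510 at day 90. The call was lost without M1, without M2 and without M6.

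Other secreted proteins of milk went the other way or did not pass. GLYCAM1 (chr11:51725784-51727934), a mucin-like glycoprotein of milk, had a median FPKM of 3933 at day 30 (2079 to 4937) and of 2222 at day 90 (1128 to 3010). It was lower at day 90 in 6 of 6 animals, by 0.11 in M2 up to 1.67 in M6 on the log2 scale. Its log2 difference was -0.73 (SE 0.20, limma adjusted p = 0.0305), and this call was lost without M1, M3, M4, M5 or M6. SPP1, osteopontin, which binds integrins and calcium, had a difference of -0.30 (SE 0.18, adjusted p = 0.241), with M5 higher and the other 5 animals lower.

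Of the genes of lipid handling, FABP3 fell. It encodes a fatty acid binding protein that carries fatty acids in the cytoplasm. Its FPKM were 19970 to 26410 at day 30 (median 23200) and 9943 to 19340 at day 90 (median 16500), so every day 90 sample lay below every day 30 sample. M4 was lowest on both days. The log2 difference was -0.53 (SE 0.13, limma adjusted p = 0.0259), lower in 6 of 6 animals, and the call was lost without M1, M5 or M6. PLIN2, which coats lipid droplets, was represented by transcripts at 4 loci whose reads may be shared. Their differences were between -0.33 and -0.20 and none passed (adjusted p of 0.359 to 0.527), and the animals disagreed: M3 was 0.80 to 0.97 higher at day 90 and M6 0.97 to 1.39 lower.

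In lactose synthesis the enzymes did not move together. B4GALT1, the galactosyltransferase that joins galactose to glucose when bound to alpha-lactalbumin, lies at chr15:44063193-44118812. Its FPKM ran from 161.6 to 269.2 at day 30 (median 182.3) and from 178 to 481.6 at day 90 (median 423.7). At day 90 the samples of M1, M2, M5 and M6 lay above every day 30 sample, while M3 and M4 stayed within the day 30 range. The log2 difference was 0.86 (SE 0.25, limma adjusted p = 0.0406), higher in 5 of 6 animals, with M4 at -0.34. This locus belongs to a chain of overlapping loci that holds 21 transcripts, itself included, not all of which need overlap it. Summed over the chain the limma adjusted p was 0.0559, and the call was also lost without M1, M2, M5 or M6.

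NME2, a nucleoside diphosphate kinase that recharges nucleotides such as UTP, fell in 6 of 6 animals from a median FPKM of 354.7 to 247.8. Its difference was -0.52 (SE 0.11, limma adjusted p = 0.0155), with a slight overlap between the days. UGP2, which makes UDP-glucose, was lower in 6 of 6 animals but did not pass, with -0.86 (SE 0.32, adjusted p = 0.08), and M4 alone fell by 2.76 on the log2 scale, from 392.7 FPKM, within the range of the others, to 62.79. Without M4 the difference was -0.48 and the adjusted p 0.0432. GALK1, galactokinase, had a difference of -0.34 (adjusted p = 0.0956), and CMPK1, a UMP and CMP kinase, -0.22 (0.142). PGM1, phosphoglucomutase, had 0.06 (0.779), and GALT, which moves uridylate between hexoses, 0.16 (0.516).

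The remaining abundant transcripts are those of genes used by many cells, and most were lower at day 90. FTL and FTH1, the light and heavy chains of the iron store ferritin, differed by -0.43 (SE 0.12, limma adjusted p = 0.0318) and -0.43 (SE 0.086, adjusted p = 0.0139). FTH1 was lower in 6 of 6 animals and FTL in 5, with M3 at 0.06 after scaling. The FPKM of FTL in M3 before scaling were 3039 at day 30 and 2807 at day 90. M2 had the highest levels of both on both days, for FTL 11880 and 7071 FPKM, where the medians were 3631 and 2914. MT1E, a metallothionein that binds zinc and copper, did not move in a common direction (-0.01, SE 0.18, adjusted p = 0.962).

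TPT1, a growth-related protein whose translation is tightly controlled, fell from 2314 to 3520 FPKM at day 30 to 1671 to 2297 at day 90, with no overlap. Its difference was -0.45 (SE 0.10, limma adjusted p = 0.0181). SERF2 fell from 2008 to 2703 FPKM to 1160 to 1845, also with no overlap, by a difference of -0.59 (SE 0.12, adjusted p = 0.0152). ATP5J2, a subunit of the mitochondrial ATP synthase, differed by -0.70 (SE 0.14, adjusted p = 0.015). These transcripts and those of ferritin lie at loci of 197 to 801 bases, of the class whose median difference was -0.34, and their reads may be shared with copies elsewhere.

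Of the named genes with a role on the cell surface, neither passed. B2M, the light chain of class I histocompatibility molecules, had a median of 3472 FPKM at day 30 and 2493 at day 90 and a difference of -0.42 (SE 0.15, limma adjusted p = 0.0797), with M2 the highest on both days and the one that fell most, by 1.15. It passed with FPKM left as deposited (limma adjusted p = 0.0499) and with scaling to the 75th percentile (0.0418). CD24, a glycoprotein of mammary luminal and immune cells, differed by -0.07 (SE 0.13, adjusted p = 0.723).

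**Figure D4:**
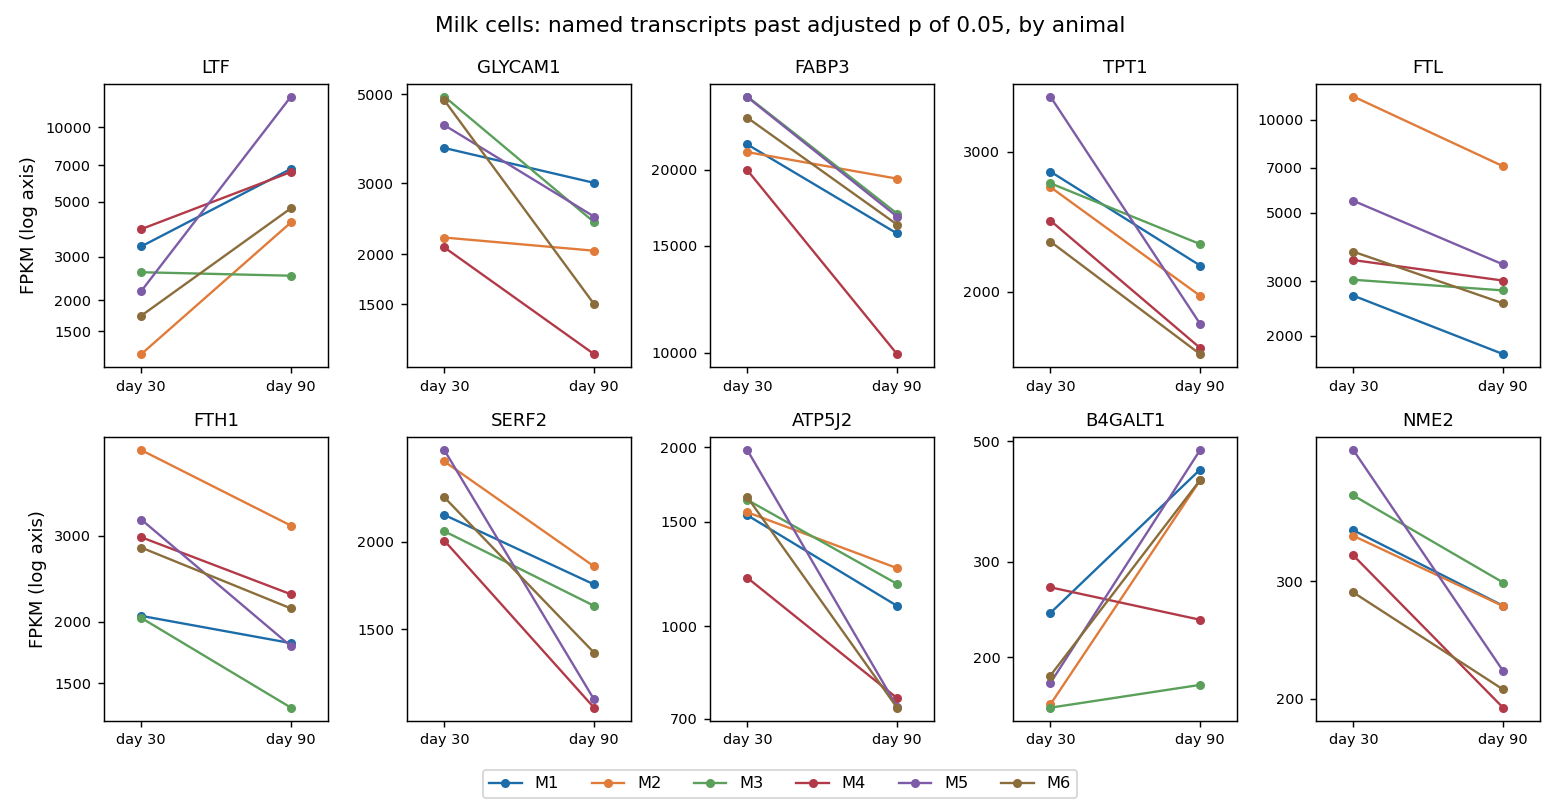
FPKM (log axis, a separate range in each panel) of the 10 named transcripts with an adjusted p under 0.05, at day 30 and day 90, with 1 line for each animal. LTF rises most in M5 and hardly changes in M3, B4GALT1 falls in M4, and every line of the other transcripts falls.

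None of the largest changes belonged to a transcript with a gene name at hand. Of all 13815 transcripts tested, 1386 were higher at day 90 in 6 of 6 animals and 2365 were lower in 6 of 6. Of the 25 transcripts past 3-fold, 14 were higher in 6 of 6 and 5 were lower in 6 of 6. Those of the 25 that did not move the same way in 6 of 6 all lay at loci of 111 to 331 bases. The changes of the 25 reached from -2.54 to 2.05 on the log2 scale. The fall of -2.54, at a locus of 331 bases, had 1 animal higher and 5 lower. It still passed in only 2 of the 6 fits with an animal left out. Which transcripts passed depended on the animals: 22 of the 25 still passed without M1 or without M3, 19 without M4, 18 without M2, 12 without M6 and 9 without M5.

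The rise of ENSMMUT00000027656 (chr1:11992899-12025261) was the largest among those higher in 6 of 6 animals. Its FPKM were near 0 to 11.34 at day 30 (median 0.435) and 4.15 to 20.2 at day 90 (median 8.87), with M6 already at 11.34 at day 30. The log2 difference was 2.05 (SE 0.35, limma adjusted p = 0.012), but its size was not stable. With 0.1 added in place of 1 it was 3.78. For the sum of the 3 transcripts in its chain of overlapping loci the log2 difference was 0.28 (limma adjusted p = 0.256). The call was also lost with animals not paired (0.0642) and with transcripts of low level left in (0.0505). The next, ENSMMUT00000001100 (chr4:84072600-84074019), overlaps no other. It went from 0.455 to 19.7 FPKM at day 30 (median 4.24) to 3.48 to 52.7 at day 90 (median 22.1), with M4 lowest and M5 highest on both days. Its animals moved alike, by 1.48 to 2.34, and its difference of 1.87 (SE 0.12) had the smallest adjusted p of all, 0.00272. It passed 3-fold whichever animal was left out, but not the adjusted p with animals not paired (0.0801 in limma).

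The largest falls among those lower in 6 of 6 animals were of a similar size. ENSMMUT00000026210 (chr16:51605613-51610791) went from 55.1 to 129.7 FPKM at day 30 (median 125) to 7.46 to 61.5 at day 90 (median 30.6), with M5 lowest on both days. Its difference was -1.90 (SE 0.17, limma adjusted p = 0.00751). ENSMMUT00000030237 (chr4:29289740-29292775) went from 17.3 to 349.3 FPKM (median 40.8) to 2.93 to 70.3 (median 10.8). The animals differed widely in level, M5 being highest and M6 lowest on both days, yet the fall was -2.19 to -1.09 in each. Its difference was -1.82 (SE 0.14, adjusted p = 0.00715). Its chain of overlapping loci holds 10 transcripts, so the division of reads between those that overlap is uncertain. Both passed 3-fold whichever animal was left out. With animals not paired, the first still passed the adjusted p in limma (0.0387) and the second did not (0.123).

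Among the 25, 3 neighbouring loci on chromosome 11 rose together. The set was sought among the 25 as neighbours of the same direction, after its values were seen. Its common rise and its passing were therefore fixed by the choice. Whether the 3 loci belong to the same gene was not tested. They lie within chr11:110148504-110287284 and do not overlap each other. The first had FPKM of 21.7 to 42.1 at day 30 and 40.1 to 118.1 at day 90, the second of 25.6 to 58.3 and 49.3 to 162.9, and the third of 16.6 to 38.2 and 30.9 to 102.4. In each the day 90 sample of M3 fell within the day 30 range, set by M4, and the other day 90 samples lay above that range. The log2 differences were 1.63 (SE 0.24), 1.71 (SE 0.27) and 1.70 (SE 0.28), each with a limma adjusted p of 0.012 and higher in 6 of 6 animals. M3 and M4 rose by 0.60 to 0.79 and M5 by 2.49 to 2.65. Without M5 none of the 3 passed 3-fold, with differences of 1.46 to 1.54. Of the 3, 1 passed without M6 and 2 without M2.

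Milk fat from the same milkings served as a comparison in the 4 animals that had it on both days, M1, M2, M3 and M6. It holds the cytoplasm that secretory cells shed with fat globules. Between the days 1 of 12662 transcripts passed 3-fold at an adjusted p under 0.05 in limma (0.0079%), and 1604 had an unadjusted p under 0.05. In milk cells of these 4 animals 1 transcript of 13749 passed, and 3956 had an unadjusted p under 0.05. The difference between the day changes of milk cells and of milk fat was tested as an interaction with animal and sample type paired, and 0 of 13455 transcripts (0.0%) passed, with 3112 at an unadjusted p under 0.05 and a smallest adjusted p of 0.0537. Without M3, 53 passed.

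The named transcripts are set side by side for these 4 animals. TPT1 differed by -0.35 in the milk cells of the 4 animals and by 0.42 in their milk fat, SERF2 by -0.43 and 0.27, and both had an interaction adjusted p of 0.0537 in limma. TPT1 was lower in 4 of 4 animals in cells and higher in 4 of 4 in fat. NME2 differed by -0.36 in cells and 0.23 in fat (interaction adjusted p = 0.0771) and FABP3 by -0.42 and 0.18 (0.123). LTF differed by 1.10 in cells and 0.64 in fat, and B4GALT1 by 0.94 and 0.36, higher in 4 of 4 animals in both, with interaction adjusted p of 0.423 and 0.189. The 3 loci on chromosome 11 differed by 1.65 to 1.76 in cells and by 0.26 to 0.31 in fat (0.0537 to 0.0602).

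The trend with level had the opposite sign in milk fat. For transcripts of a level of 8 or more in milk cells, the animal medians in milk fat were 0.13 to 0.56, all above 0, and those in milk cells of the same animals were all below 0. The difference, cells minus fat, averaged -0.68 and was below 0 in 4 of 4 animals. For loci of 100 to 1000 bases it averaged -0.38, again in 4 of 4. An exact permutation of signs over animals gave a two-sided p of 0.125 for each, the smallest that 4 animals allow, so these differences cannot pass 0.05 in this design.

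**Figure D5:**
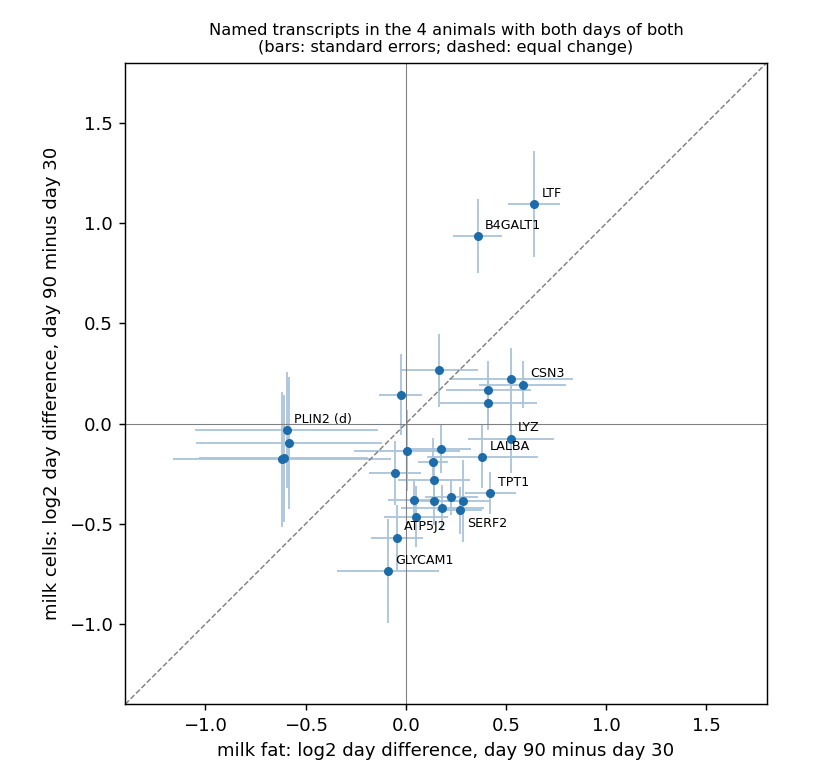
Log2 day difference, day 90 minus day 30, of the 29 named transcripts in milk fat (horizontal axis) and in milk cells (vertical axis) of the 4 animals with both, with standard errors as bars and equal change as a dashed line. LTF and B4GALT1 lie above 0 on both axes, while TPT1 and SERF2 lie below 0 in cells and above 0 in fat.

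The day of the biopsy made no difference that passed the test. As an interaction in limma, 0 of 13815 transcripts (0.0%) passed, 1090 had an unadjusted p under 0.05, and the smallest adjusted p was 0.109. Among the named transcripts, the day difference of LTF in the animals biopsied at day 30 was that of the others plus -1.17 (limma unadjusted p = 0.0533, adjusted p = 0.635), and for GLYCAM1 plus -0.90 (unadjusted p = 0.00806, adjusted p = 0.417). An unadjusted p under 0.05 was also found for SPP1 (-0.76, limma p = 0.0173), LALBA (-0.63, 0.0324), LYZ (-0.52, 0.0432) and LGB2 (-0.61, 0.0446), and none of them passed after adjustment. With 3 animals a side, and with pools 2 and 3 each holding animals of 1 side, a difference of this size was not separable from the spread between animals.

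Whether an animal's days were closest to each other depended on the measure. By Spearman correlation over all transcripts, the samples of an animal correlated with coefficients of 0.922 in M5 to 0.935 in M1, against medians of 0.925 among the animals at day 30 and 0.926 at day 90. In 5 of 6 animals each day's sample was the closest milk cell sample to the other, and M5 was the exception. With a mean FPKM of at least 1 it was so in 1 animal, and likewise in 1 with the Pearson correlation of log2 values. Transcripts at loci under 100 bases, a class set by length alone, took 1.19% to 4.83% of the summed FPKM at day 30 and 1.19% to 2.59% at day 90. Their share was lower at day 90 in 5 of 6 animals (two-sided p = 0.281 by an exact permutation of signs over animals, 0.469 after adjustment).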

How the data were processed

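The authors trimmed the reads with Scythe and Sickle, mapped them to rheMac2 with Bowtie and TopHat and estimated FPKM for Ensembl transcripts with Cufflinks, where transcripts that overlap share their reads by estimation; versions are not given in the sources used here, and these deposited FPKM were the values analysed. They carry no read counts, so no interval for counting error was computed, and the authors' own tests of gene counts were not used. The file held 42701 transcripts and 6 columns of values whose names match no described sample, which were not used.

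The 3 technical runs of a sample were averaged. Relative depth came from the spacing of low FPKM in 1768 transcripts that overlap no other. Factors for scaling were medians of ratios to the geometric mean, taken over 21792 transcripts with a value above 0 in each of the 34 samples. The log2 of scaled FPKM + 1 was fitted with limma 3.58.1 in R 4.3.3, with animal as a block and a trend in the prior variance, two-sided, with Benjamini-Hochberg adjustment over those transcripts whose mean FPKM reached 1. Calls needed more than 3-fold change and an adjusted p under 0.05. Pairs came from the animal labels. The deviations of an animal's samples from the mean of their day correlated by 0.223 to 0.663, in all 6 animals. The animals are separate, so p-values of the paired fits and of the sign permutations measure the spread of the day change over animals. Differences in level between animals enter only where animals were not paired. The fits and the depth estimate were tested on simulated data. The rest was done in Python 3.11.15 (pandas 2.3.3, numpy 2.4.6, matplotlib 3.10.9).

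Transcripts were named where the study ties a gene to one, through the identifiers in its lactose pathway figure or the closest mean FPKM in its lists of abundant transcripts, and, without a gene name, for the 2 largest changes past the call in each direction among those of the same direction in 6 of 6 animals. One transcript is not reported here. The transcripts, classes and tests were chosen with earlier results of these data known. Alternatives covered pairing, scaling, pseudocount, filter, trend, sums over overlapping loci and each animal left out.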

Additional observations from a re-analysis of the deposited data

Results flagged for a closer look

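Of 109 sets of 6 values checked, 7 held 1 animal far from the other 5, and chance gives about 1 in 20. For PLIN2, M3 was highest at day 90 at each of the 4 loci, with log2 levels of 10.71 (the others 9.31 to 9.66), 9.81 (8.54 to 8.85), 8.53 (7.47 to 7.85) and 11.3 (10.17 to 10.58). At 1 of them, M6 was highest at day 30, at 9.04 (the others 7.60 to 8.11). For UGP2, M4 was lowest at day 90, at 5.77 (the others 8.01 to 9.02), and its day difference was -2.76 (the others -0.85 to -0.09).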

How the results depend on the processing

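FPKM carry no read counts, transcripts overlap, and 6 pairs give exact p-values no smaller than 0.03125. No named transcript that passed changed direction under any alternative, and the cause of the changes below was not tested. The count past 3-fold, 25, was 13 without the animal block, 118 with a pseudocount of 0.1, 14 without a filter on low values, 97 without pool 3 (chosen after seeing the data), and 14 to 39 with an animal left out. The count past the adjusted p alone, 3460, was 711 without the block, 1305 without the filter (over 33419 transcripts) and 729 to 4283 with an animal left out. Of the named transcripts, 10 passed in the main analysis, 0 without the block, 0 without the filter and 0 to 9 with an animal left out. For the sum over its chain of overlapping loci, ENSMMUT00000027656 differed by 0.28.

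The interaction with the day of biopsy called 0 to 3 transcripts with an animal left out. In milk fat, 2 passed with FPKM as deposited, 0 without the filter, 2 at a mean FPKM of at least 5, 0 without the variance trend and 0 without any animal. Cells against fat called 1 with FPKM as deposited, 1 with scaling to the 75th percentile, 1 at a mean FPKM of at least 5 and 0 to 53 with an animal left out. The milk protein share rose by 5.93 points without the pairing (exact permutation p = 0.139) and by 4.995 to 6.70 with an animal left out, where 5 pairs cannot pass 0.05. The number of transcripts with an FPKM of at least 1 differed by -160.8 to 217 with an animal left out. The animals whose days were closest to each other were 1 with Pearson correlation and 1 at a mean FPKM of at least 1.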

Other observations

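As values chosen after seeing the data, the milk cell samples were set against the biopsies and the milk fat of the other animals. The mean Spearman correlation with the biopsies was 0.856 to 0.872 at day 30 and 0.866 to 0.878 at day 90, and it was higher at day 90 in 6 of 6 animals, by a mean of 0.00638 (SD 0.00483, two-sided p = 0.03125 by an exact permutation of signs over animals, 0.0781 after adjustment over 5 values). The mean correlation with milk fat was 0.874 to 0.916 at day 30 and 0.895 to 0.918 at day 90, higher in 3 animals and lower in 3 (exact permutation p = 0.375, 0.469 after adjustment).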
